A study of Mus musculus with 6 samples.

Results

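Radial glia are the stem cells of the embryonic cortex, and 10 genes that mark them or keep them undifferentiated were followed here: Notch1, Hes1, Hes5, Sox2, Pax6, Sox9, Hopx, Nes, Vim and Fabp7. They were chosen by symbol, and all 10 were found among the 43346 genes of the count table. The cells came from the cortex of mouse fetuses at gestational day 15.5 and were kept as primary cultures, to which either DMSO, the vehicle, or 10HDA at 1 mM was added before RNA sequencing. 10HDA is the main fatty acid of royal jelly. Each treatment had 3 libraries, 1 from each of cultures 1, 3 and 4, so that the libraries of a culture form a pair. The labels give every sample as Cyp19-EGFP and SRY+. This transgene places EGFP under regulatory sequences of the aromatase gene, and the label is the same for vehicle and treated cells. The methods for the sequencing experiment name C57BL/6 embryos instead, and whether the cells carried the transgene was not tested. How long the cells were treated, how many days they had been in culture and how many embryos went into a culture are not given in the sources used here. The p-values below measure the spread between these cultures where the fit has no culture term. Where culture is a term of the fit, they set the treatment difference against its variation from culture to culture. In both fits edgeR estimates the spread of a gene partly from all genes tested. The p-values therefore do not rest on the cultures of that gene alone.

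The libraries held from 9144736 to 13367194 counts, so that 3 counts corresponded to between 0.224 and 0.328 CPM, counts of a gene per total counts of the library on a scale that makes libraries comparable, a limit that covers counting error only. Values per gene are CPM after scaling by TMM, a method that evens out differences in RNA composition. Markers of neurons and of cortical identity were abundant in every library, as in Tubb3, a neuronal tubulin, at 1619 ± 180.2 CPM with vehicle (SD, n = 3). From the Y chromosome, Uty, Kdm5d, Eif2s3y and Ddx3y summed to 8.87 and 9.10 CPM in the libraries of culture 1 and to between 95.7 and 133 CPM in the other 4, although all samples are labelled SRY+. The calls with culture as a block are therefore also given without culture 1. That fit holds only the pairs of cultures 3 and 4, so that its p-values rest largely on spread estimated over all genes.

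A radial glial cell spans the wall of the developing cortex, divides to renew itself and gives rise to neurons, either directly or through intermediate progenitors, and later to astrocytes. Notch signalling holds it in this state: a ligand on a neighbouring cell binds a Notch receptor, proteases release the intracellular part of the receptor, and this part joins the DNA-binding protein RBPJ to switch on the Hes repressors, which block neurogenic genes. Sox2, Pax6 and Sox9 are transcription factors of the progenitor state. Nestin and vimentin form the intermediate filaments of the radial fibre, and Fabp7 binds fatty acids in the cell body and fibre. Astrocytes share several of these genes, and vimentin is also made by vascular cells and fibroblasts.

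The stretch of 250 bases before the transcription start is shown for 3 members: Hes5, the Hes gene that was counted well enough to be tested, Fabp7, which is also known as a target of Notch and RBPJ, and Vim, which was added after its values were seen because it differed from Fabp7 in direction. The sequences are those of RefSeq on GRCm38.p6, which held such a stretch for 8 of the 10 members, and capitals mark the core of the RBPJ binding motif, TGGGAA, searched on both strands (TTCCCA on the other). The Hes5 stretch lies at chr4:154960673-154960922, the Fabp7 stretch at chr10:57784673-57784922 and the Vim stretch at chr2:13574061-13574310, all on the plus strand. GENCODE M21 starts Vim and Fabp7 further upstream than RefSeq does, so that the Vim stretch lies inside the gene as GENCODE draws it and the end of the Fabp7 stretch overlaps its gene.
Hes5: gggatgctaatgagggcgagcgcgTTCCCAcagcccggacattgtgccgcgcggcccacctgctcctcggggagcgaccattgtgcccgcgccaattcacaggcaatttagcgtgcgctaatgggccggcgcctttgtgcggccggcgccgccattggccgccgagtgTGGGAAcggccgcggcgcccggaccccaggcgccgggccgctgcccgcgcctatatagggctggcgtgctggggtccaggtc
Fabp7: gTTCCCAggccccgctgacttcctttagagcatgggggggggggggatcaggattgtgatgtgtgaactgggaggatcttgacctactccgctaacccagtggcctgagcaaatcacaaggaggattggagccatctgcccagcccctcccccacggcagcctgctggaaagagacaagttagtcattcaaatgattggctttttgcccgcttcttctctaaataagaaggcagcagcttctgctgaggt
Vim: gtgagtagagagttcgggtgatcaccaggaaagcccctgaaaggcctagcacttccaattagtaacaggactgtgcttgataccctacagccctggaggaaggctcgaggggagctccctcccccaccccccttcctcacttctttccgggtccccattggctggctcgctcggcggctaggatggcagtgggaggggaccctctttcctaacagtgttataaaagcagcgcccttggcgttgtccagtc
The Hes5 stretch held 2 matches, 1 in each orientation, which began 226 and 82 bases before the start. That of Fabp7 held 1, at its far end, 249 bases before the start, and that of Vim held 0. No match was found in the stretches of Sox2, Pax6, Nes, Notch1 and Hopx, with Pax6 and Hopx read at both of their starts. Such a match is common, since 21.6% of 32851 stretches of this length held at least 1, and it describes letters rather than binding.

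Of the 10 genes, 8 had at least 10 CPM in at least 3 libraries, the filter of the study's methods, and were tested together with all 10520 genes that passed it. Without a culture term, which those methods do not name, edgeR's quasi-likelihood test put 0 of the 8 past the threshold, an adjusted p of 0.1, against 0.627% of all genes tested. Vim and Fabp7 had an unadjusted p under 0.05, as had 10.1% of all genes, and DESeq2, edgeR's likelihood ratio test and limma-voom called 0 members as well. With culture as a block, which compares the paired libraries, 2 of the 8 passed, against 8.98% of all genes: Vim rose and Fabp7 fell, where 3.91% of all genes rose and 5.08% fell. When both libraries of culture 1 were left out, 0 passed without the block, and the same 2 passed with it, against 6.76% of all genes. Their treatments did not overlap either, which held for 2 of the 8 and for 13.4% of all genes. The median log2 fold change of the 8 was -0.091 without the block and -0.0095 over all genes tested, and 3 of the 8 were higher and 5 lower with 10HDA. Without culture 1 that median was 0.037, on the other side of 0.

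**Figure D1:**
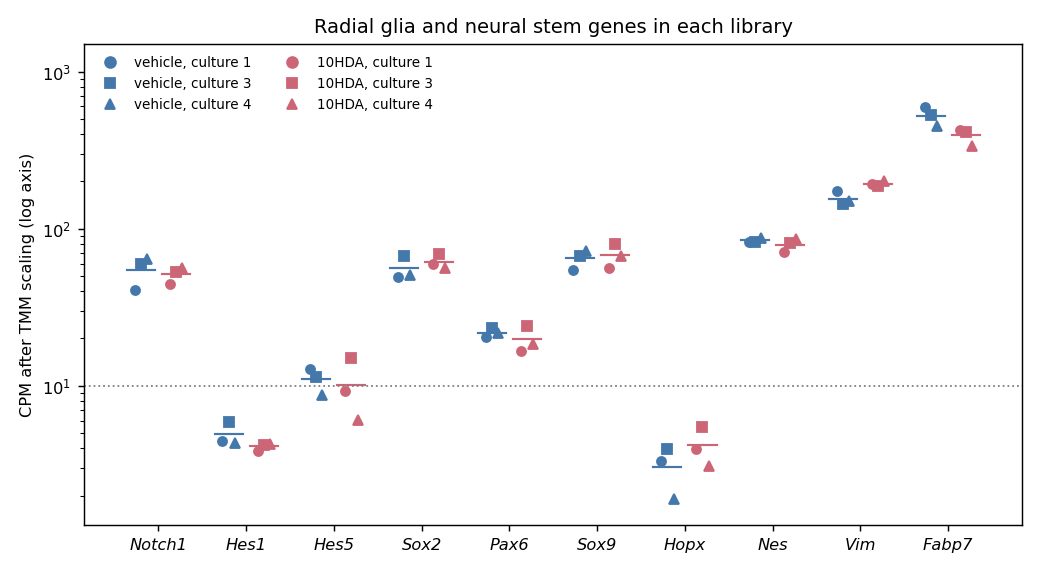
CPM after TMM scaling (log axis) of the 10 genes in the 6 libraries, with vehicle in blue and 10HDA in red, a symbol for each culture and a short line at each mean. The dotted line marks 10 CPM. Only in Hes1, Vim and Fabp7 do the treatments not overlap, and Hes1 and Hopx lie under the line in every library.

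Vim (ENSMUSG00000026728.5, chr2:13573927-13582826) encodes vimentin, the filament protein of radial glia, of young astrocytes and of mesenchymal cells. It had 173, 143 and 149 CPM with vehicle in cultures 1, 3 and 4 and 192, 187 and 202 CPM with 10HDA. Every 10HDA library lay above every vehicle library, and the vehicle library of culture 1 came closest. The log2 fold change was 0.32 (standard error 0.101, 95% interval 0.097 to 0.54, adjusted p = 0.31 in edgeR). With culture as a block Vim rose by 25.0%, and the standard error of the log2 fold change was 0.094 (adjusted p = 0.041 in edgeR). Within the cultures the log2 ratio was 0.15, 0.39 and 0.43, so that culture 1 showed the least. Without both libraries of culture 1 the log2 fold change was 0.43 (adjusted p = 0.016 with the block and 0.46 without it, in edgeR).

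Fabp7 (ENSMUSG00000019874.7, chr10:57784881-57788450) encodes the brain fatty acid binding protein, which carries long-chain fatty acids in radial glia and astrocytes. It had 592, 529 and 448 CPM with vehicle and 427, 413 and 337 CPM with 10HDA in cultures 1, 3 and 4. Within each treatment culture 1 was the highest and culture 4 the lowest, and the 10HDA library was the lower one in every culture. The treatments did not overlap after TMM scaling, but with library size alone the highest 10HDA library, at 441 CPM, exceeded the lowest vehicle library, at 421 CPM. The log2 fold change was -0.41 (standard error 0.131, 95% interval -0.70 to -0.13, adjusted p = 0.31 in edgeR). With culture as a block Fabp7 fell by 24.9%, and the standard error of the log2 fold change was 0.092 (adjusted p = 0.0067 in edgeR). The log2 ratios within the cultures lay close together, at -0.47, -0.36 and -0.41. Without culture 1 the log2 fold change was -0.37 with the block (adjusted p = 0.035 in edgeR) and -0.36 without it (adjusted p = 0.72 in edgeR).

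Vim and Fabp7 thus moved in opposite directions in the same libraries. The ratio of Vim to Fabp7 counts, which no scaling of the library changes, was 0.292, 0.271 and 0.334 with vehicle and 0.450, 0.454 and 0.598 with 10HDA in cultures 1, 3 and 4. It was higher with 10HDA in every culture and did not overlap between the treatments, although this ratio was chosen after the values of both genes were seen and was not tested.

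**Figure D2:**
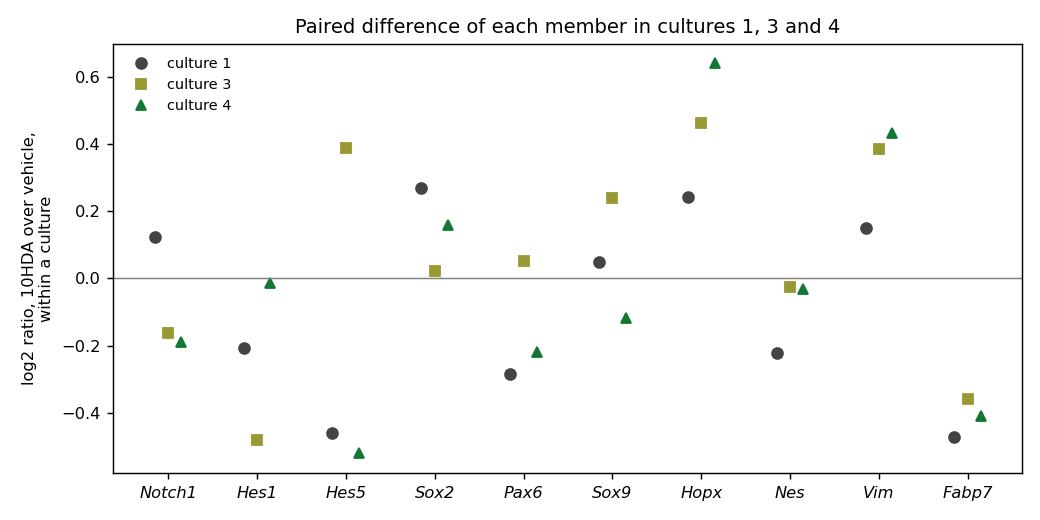
Log2 ratio of 10HDA over vehicle within cultures 1, 3 and 4 for each of the 10 genes, from log2 CPM with a prior count of 2. Vim, Hopx and Sox2 lie above 0 in all 3 cultures, Fabp7, Hes1 and Nes below 0 in all 3, and Hes5 shows the widest spread, from -0.52 to 0.39.

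Of the 8 tested genes, 4 moved in the same direction in all 3 cultures, namely Vim, Fabp7, Sox2 and Nes, against 39.5% of all genes tested. Nes (ENSMUSG00000004891.12, chr3:87971078-87980451) encodes nestin, the filament protein that partners vimentin in neural stem cells. It had 82.7, 82.1 and 87.7 CPM with vehicle and 70.9, 80.6 and 85.8 CPM with 10HDA in cultures 1, 3 and 4. The 10HDA library of culture 1 was the lowest, and the treatments overlapped. The log2 fold change was -0.090 (standard error 0.103, 95% interval -0.32 to 0.14, adjusted p = 0.77 in edgeR). The estimate for Vim, 0.32, lay outside this interval, but the interval of Vim, from 0.097 to 0.54, overlapped it. The difference between Nes and Vim was not tested.

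Sox2 (ENSMUSG00000074637.6, chr3:34650405-34652461) is the transcription factor that maintains the neural stem state. It had 49.5, 67.5 and 50.7 CPM with vehicle and 59.7, 68.6 and 56.6 CPM with 10HDA. The libraries of culture 3 were the highest in both treatments, and the treatments overlapped. Its log2 fold change was 0.14 (standard error 0.137, 95% interval -0.16 to 0.44, adjusted p = 0.73 in edgeR), and the log2 ratio within cultures ranged from 0.023 in culture 3 to 0.27 in culture 1. The gene lies inside the long non-coding gene Sox2ot on the same strand.
Sox9 (ENSMUSG00000000567.5, chr11:112782224-112787760), which induces and keeps neural stem cells and later specifies astrocytes, had 54.6, 67.3 and 72.4 CPM with vehicle and 56.6, 79.6 and 66.7 CPM with 10HDA. The libraries of culture 1 were the lowest in both treatments, and culture 4 went against the other 2 cultures. The log2 fold change was 0.062 (standard error 0.145, 95% interval -0.26 to 0.38, adjusted p = 0.90 in edgeR).
Pax6 (ENSMUSG00000027168.17, chr2:105668900-105697364) drives the neurogenic programme of cortical radial glia. It had 20.4, 23.3 and 21.6 CPM with vehicle and 16.7, 24.2 and 18.5 CPM with 10HDA. The vehicle libraries lay within the range of the 10HDA libraries. Its log2 fold change was -0.13 (standard error 0.154, 95% interval -0.47 to 0.21, adjusted p = 0.78 in edgeR), with culture 3 slightly above 0 and the other 2 cultures below.
Hopx (ENSMUSG00000059325.10, chr5:77086988-77115121), a small homeodomain protein that marks outer radial glia and some adult stem cells, was the most sparsely counted member, with from 23 to 76 counts in a library. It had 3.31, 3.93 and 1.91 CPM with vehicle and 3.95, 5.48 and 3.07 CPM with 10HDA. It was higher with 10HDA in each culture, with log2 ratios of 0.24, 0.46 and 0.64, but the treatments overlapped. In a test with the filter lowered to 1 CPM its log2 fold change was 0.48 (standard error 0.294, adjusted p = 0.59 in edgeR), and 0.46 with culture as a block (adjusted p = 0.24 in edgeR).

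Notch1 (ENSMUSG00000026923.11, chr2:26457903-26516663) is the receptor through which neighbouring cells hold radial glia undifferentiated. It had 40.9, 59.4 and 63.8 CPM with vehicle and 44.6, 53.0 and 55.9 CPM with 10HDA in cultures 1, 3 and 4. Both libraries of culture 1 were lower than those of the other cultures, and the treatments overlapped. The log2 fold change was -0.098 (standard error 0.160, 95% interval -0.45 to 0.25, adjusted p = 0.84 in edgeR). The log2 ratio was above 0 in culture 1 and below 0 in cultures 3 and 4.
Hes5 (ENSMUSG00000048001.7, chr4:154960923-154962371) encodes a Hes repressor that Notch switches on directly in the cortex. It had 12.8, 11.4 and 8.73 CPM with vehicle and 9.27, 15.004 and 6.03 CPM with 10HDA. It was higher with 10HDA in culture 3 and lower in cultures 1 and 4, and the 10HDA libraries spanned the whole vehicle range. The log2 fold change was -0.092 with a wide interval, from -0.69 to 0.51 (adjusted p = 0.92 in edgeR). Antisense genes overlap Hes5, Pax6, Hopx and Notch1, and those listed had from 0 to 8 counts in a library.
Hes1 (ENSMUSG00000022528.7, chr16:30064384-30067796), the other Hes effector of Notch, had 4.48, 5.90 and 4.32 CPM with vehicle and 3.86, 4.18 and 4.28 CPM with 10HDA, from 39 to 78 counts in a library. All 10HDA libraries lay below all vehicle libraries, but by a narrow margin in culture 4, where the log2 ratio was -0.014. At 39 counts, counting alone gives a coefficient of variation of 16.01%. In the test with the lower filter its log2 fold change was -0.25 (standard error 0.204, 95% interval -0.69 to 0.20, adjusted p = 0.69 in edgeR).

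**Figure D3:**
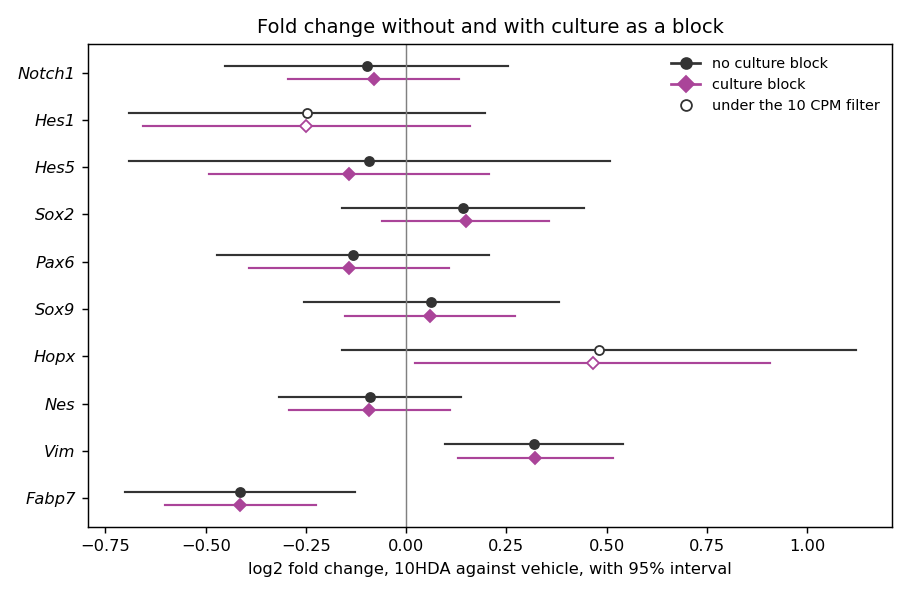
Log2 fold change of the 10 genes, 10HDA against vehicle, with 95% intervals, without (circles) and with (diamonds) culture as a block. Open symbols mark Hes1 and Hopx, tested with the lower filter. The intervals of Vim and Fabp7 exclude 0 in both fits, and that of Hopx only with the block, before adjustment.

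Per kilobase of gene length, the members differed far more from each other than between treatments. With vehicle the level of Fabp7 was 418 ± 58.0 CPM per kilobase (SD, n = 3), that of Vim 32.7 ± 3.29 and that of Sox2 22.8 ± 4.09. Sox9 followed at 15.7 ± 2.21, Nes at 13.1 ± 0.48 and Hes5 at 8.06 ± 1.52 CPM per kilobase. The lowest were Notch1 at 3.85 ± 0.85, Hes1 at 2.41 ± 0.43, Hopx at 2.01 ± 0.68 and Pax6 at 1.86 ± 0.12. The vehicle libraries of neighbours in this order overlapped for Sox9 and Nes, for Notch1 and Hes1, for Hes1 and Hopx and for Hopx and Pax6, and for no other neighbours. Lengths are those of the count table, which sum all exons of a gene, so that a gene with long alternative exons receives a lower level.

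Of 28 further genes of radial glia and neural stem cells, 24 were tested. Without the block 0 passed in edgeR's quasi-likelihood test or limma-voom and 2 in DESeq2 and in edgeR's likelihood ratio test, while 5 had an unadjusted p under 0.05 in the first. With the block 0 rose and 5 fell, where 5.08% of all genes fell: Ednrb, Tnc, Fgfr2, Mfge8 and Ptprz1. When culture 1 was left out as well, Ednrb, Tnc and Ptprz1 passed, while Fgfr2 had an adjusted p of 0.23 and Mfge8 of 0.29. Ptprz1 had log2 ratios of -0.017, -0.59 and -0.30 in cultures 1, 3 and 4, and its treatments overlapped. Its call with the block was lost when the filter was lowered to 1 CPM (adjusted p = 0.12 in edgeR). Ednrb, the endothelin receptor of glial progenitors, had 97.5, 116 and 132 CPM with vehicle and 70.9, 72.6 and 89.2 CPM with 10HDA, a log2 fold change of -0.57 (adjusted p = 0.00045 with the block, in edgeR). Tnc, which encodes the matrix protein tenascin C, had 145, 143 and 175 CPM with vehicle and 97.7, 117 and 126 CPM with 10HDA, a log2 fold change of -0.44 (adjusted p = 0.0050 in edgeR). Both were lower with 10HDA in every library than in any vehicle library. Fgfr2, a growth factor receptor, Mfge8, a secreted glycoprotein, and Ptprz1, a receptor phosphatase, had log2 fold changes of -0.39, -0.37 and -0.30 with the block. Ddah1, an enzyme that breaks down inhibitors of nitric oxide synthesis, had a log2 fold change of -0.25 (adjusted p = 0.11 with the block, in edgeR). The treatments did not overlap in 5 of the 24 genes, Ednrb, Tnc, Fgfr2, Mfge8 and Ddah1, as held for 13.4% of all genes tested. Of the 24 genes 7 were higher and 17 lower with 10HDA. The median of the 24 was -0.073 and became 0.00054 with library size alone as the scaling.

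Along the Notch pathway 31 further genes were tested, and 0 passed without the block in edgeR's quasi-likelihood test or limma-voom and 1 in DESeq2 and in edgeR's likelihood ratio test, while 3 had an unadjusted p under 0.05 in the first. With the block 2 rose and 2 fell, where 3.91% of all genes rose and 5.08% fell, so that the count lay near that background. Of the ligands, Jag2, Dner and Dll1 were counted well enough, and none passed in either fit. Jag2 had log2 fold change 0.19 and Dner -0.14, with treatments that did not overlap in either gene, as held for 13.4% of all genes tested. Of the other receptors, Notch2 fell with the block, from 51.7 ± 6.60 to 41.3 ± 2.84 CPM (SD, n = 3 each), -0.32 on the log2 scale (adjusted p = 0.065 in edgeR), a call that was lost without culture 1 (adjusted p = 0.105). Notch3 had -0.15. None of the 8 tested proteases that cut the receptor and none of the 5 tested partners in the nucleus passed in either fit of all libraries. With the block and without culture 1, Aph1a, a subunit of gamma-secretase, passed at 0.42 on the log2 scale (adjusted p = 0.097), and Spen, a repressor that binds RBPJ, with -0.36 (adjusted p = 0.044). Rbpj, the DNA-binding partner of Notch, had 31.8 ± 4.37 CPM with vehicle and 37.0 ± 3.19 CPM with 10HDA.
Among 11 modifiers and inhibitors, Fbxw7, part of the ubiquitin ligase that marks the released Notch fragment for degradation, fell with the block. It had 96.4, 106 and 108 CPM with vehicle and 74.5, 70.2 and 81.3 CPM with 10HDA, a log2 fold change of -0.46 (adjusted p = 0.0043 with the block and 0.12 without, in edgeR). Pofut1, which adds the fucose that Notch needs to bind its ligands, rose with the block by a log2 fold change of 0.32 (adjusted p = 0.086 in edgeR), but not without culture 1 (adjusted p = 0.39), where Fbxw7 and Hes6 still passed. Of the remaining Hes and Hey genes 2 were tested. Hes6, a relative that opposes Hes1 and favours neuronal differentiation, rose with the block, from 52.6 ± 7.74 to 66.1 ± 10.5 CPM, 0.33 on the log2 scale (adjusted p = 0.053 in edgeR). Hey1, another Notch effector, had 16.7 ± 1.63 and 17.0 ± 1.44 CPM.

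**Figure D4:**
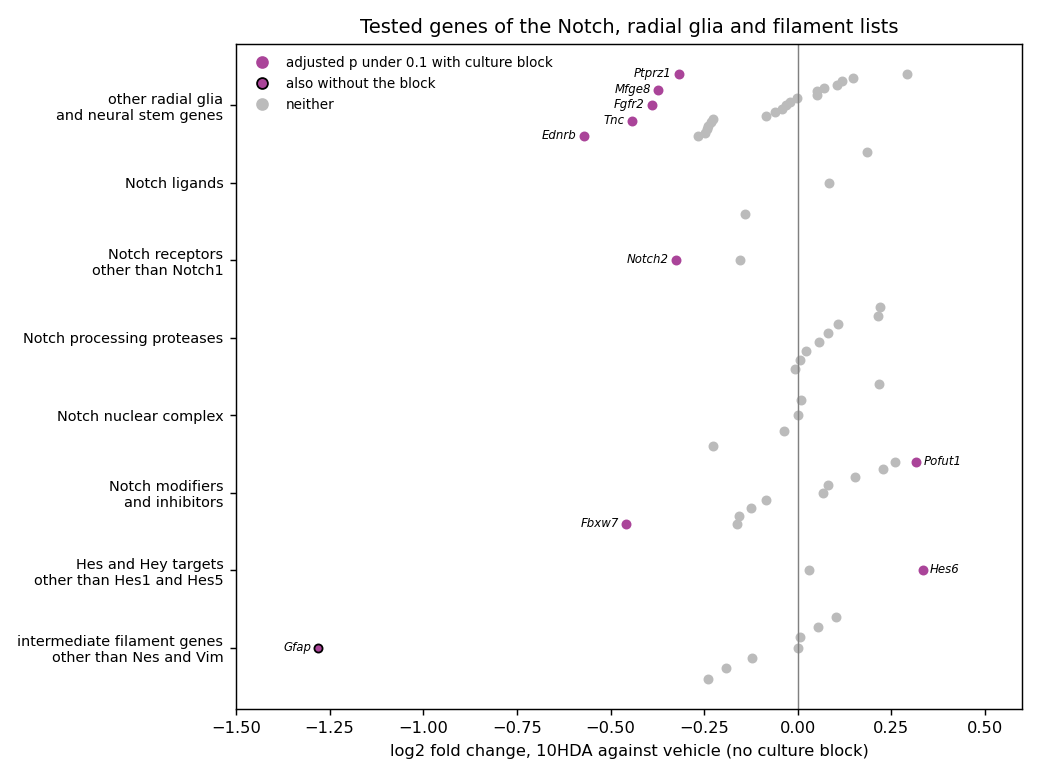
Log2 fold change, 10HDA against vehicle without a culture block, of the tested genes of 8 lists, 1 point a gene. Purple points passed an adjusted p of 0.1 with culture as a block and are named, and a black rim marks Gfap, which also passed without it. Named points lie below 0 except Pofut1 and Hes6.

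Among the other intermediate filament genes, 8 of 11 were tested. Gfap, the filament protein of astrocytes, was the 1 that passed, and did so without the block. It had 82.8, 63.9 and 101 CPM with vehicle and 23.6, 37.7 and 40.9 CPM with 10HDA, that is, -1.28 on the log2 scale (standard error 0.207, edgeR adjusted p = 0.043). It thus fell in the libraries in which Vim was higher. Without the block the call was lost when the vehicle library of culture 3 or 4, the 10HDA library of culture 1 or any whole culture was left out (adjusted p from 0.11 to 0.17), with log2 fold changes from -1.52 to -1.05. With the block and without culture 1 it was -1.01 (adjusted p = 2.1e-05). Lmna and Ina had log2 fold changes of -0.24 and -0.19, neither past the threshold in either fit.

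Markers of other cell types moved in the same libraries. Of all 10520 genes tested, 45 fell without the block and 5.08% with it. Of 12 astrocyte markers, which share Slc1a3 and Gfap with the lists above, 11 were tested, and 5 fell without the block and 7 with it. Their summed level ran from 1621 to 1978 CPM with vehicle and from 1241 to 1524 CPM with 10HDA. The sum of the 12 neuronal markers ran from 9292 to 9819 CPM with vehicle and from 7761 to 8756 CPM with 10HDA, with 5 markers lower with the block. Of 9 markers of the oligodendrocyte lineage 6 were tested, and 1 fell without the block and 3 with it. Without the block 2 of the 6 were higher and 4 lower with 10HDA. The sum of the 9 ran from 334 to 428 CPM with vehicle and from 248 to 359 CPM with 10HDA, so that the treatments overlapped. With the block and without culture 1, 6 astrocyte, 5 neuronal and 3 oligodendrocyte lineage markers fell, where 6.76% of all genes passed in either direction. In the same fit Olig1 and Olig2 had log2 fold changes of 0.17 and 0.33, neither past the threshold. The part of these cell types in the lower level of Fabp7 was not tested, and in whole cultures fewer cells of a type and less RNA per cell cannot be told apart. The vascular markers summed to between 17.6 and 20.0 CPM with vehicle and between 8.84 and 12.8 CPM with 10HDA. Of these 10 markers 1 was tested, Pdgfrb, which fell both without and with the block, and 6 stayed under 1 CPM in every library. Pdgfrb had a log2 fold change of -1.07 without the block. With the block and without culture 1 it had -0.98 (adjusted p = 0.0024 in edgeR). Those of meningeal fibroblasts summed to between 10.2 and 12.6 CPM with vehicle and between 6.92 and 7.68 CPM with 10HDA. Of these 8 markers 0 were tested, and 6 stayed under 1 CPM in every library. The part of vascular cells and fibroblasts in the higher level of Vim was not tested. The endothelial markers Cldn5 and Cdh5 and all 8 microglial markers stayed under 1 CPM in every library. Markers of intermediate progenitors summed to between 66.7 and 82.2 CPM with vehicle and between 90.9 and 125 CPM with 10HDA. Of these 9 markers 4 were tested, 3 higher and 1 lower with 10HDA, and 2 stayed under 1 CPM in every library. Eomes, Neurog1 and Neurog2, which define these cells, were not among the 4. With the block 2 rose, where 3.91% of all genes rose, namely Insm1 and Btg2 (log2 fold changes 0.74 and 0.65), also without culture 1. Gadd45g passed with the block only when culture 1 was left out, at 0.64 on the log2 scale (adjusted p = 0.047 in edgeR). Of the 12 markers of dividing cells 6 were tested and none passed in either fit, with Mki67 at 95.3 ± 20.8 CPM with vehicle and 83.9 ± 24.4 CPM with 10HDA.

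**Figure D5:**
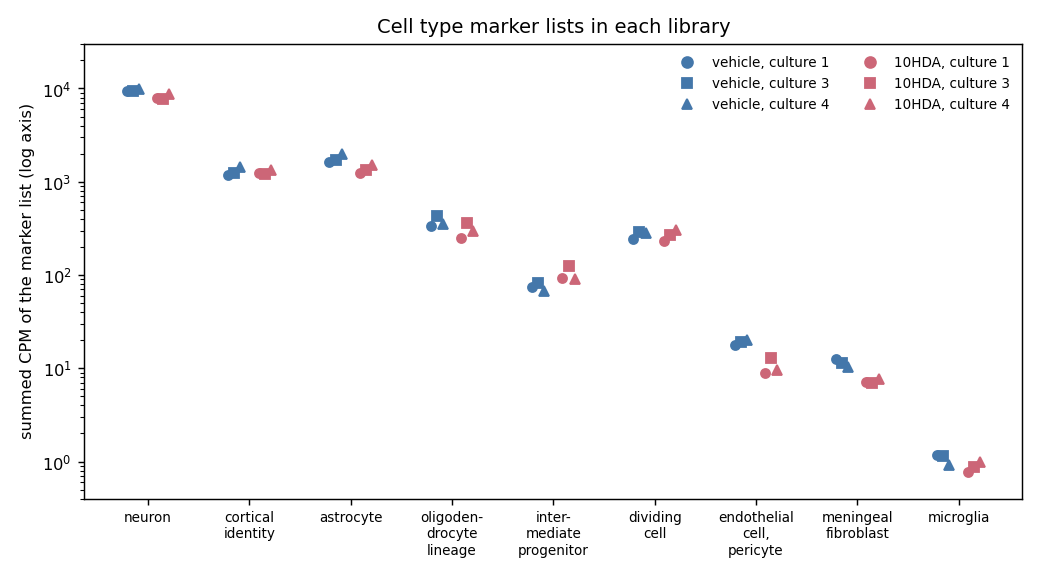
Summed CPM after TMM scaling (log axis) of 9 lists of cell type markers in each library, with vehicle in blue, 10HDA in red and a symbol for each culture. The sums of neuron, astrocyte, vascular and fibroblast markers lie lower in all 10HDA libraries than in any vehicle library, and those of intermediate progenitors lie higher.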

How the data were processed

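Total RNA from 3 primary cortical cultures, in 6 libraries with 1 of each treatment per culture, was read by the authors as single ends of 50 bp. The methods name Subjunc 1.4.4 for alignment of untrimmed reads to mm10 and featureCounts with Gencode models for counting. The deposited values are raw counts that were neither scaled nor filtered, and whether strand was used is not given in the sources used here. GENCODE M21 (GRCm38) gave symbols for 98.0% of the identifiers, and the coordinates. Columns were matched to samples by the library number that names and titles share, with 0 columns left over.

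A gene was tested if 3 or more libraries had 10 CPM or above (10520 genes). The test was the quasi-likelihood test of edgeR 4.0.16 (R 4.3.3) after TMM scaling, with p-values adjusted by Benjamini-Hochberg over those genes and a threshold of 0.1. Each standard error is the log2 fold change over the root of F. Treatment was the only term, since the methods name no other, and culture was added as a block in an alternative. The labels put 1 library of each treatment in a culture. Across genes, which are not independent, deviations from the treatment means correlated at 0.37, 0.24 and 0.62 within cultures 1, 3 and 4 and at -0.45 to 0.18 between cultures. An exact permutation test of 3 libraries against 3 is not given, since its p cannot fall below 0.1.

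The members and lists were chosen with earlier results of these data known. Every member is named, with the genes of the other pathway lists that passed in either fit, up to 3 more of a list with the smallest p, and markers by abundance or near 0. Insm1, Btg2, Gadd45g and Pdgfrb were named after their values were seen. Alternatives were other scalings, filters, tests and thresholds (DESeq2 1.42.0, limma 3.58.1), the block, and single libraries or cultures left out. In a simulation of 3 libraries against 3 with 10520 genes, all 200 genes changed by 1 on the log2 scale were found, beside 27 false calls. That change is larger than that of any member, so the simulation does not show how often changes of their size would be found.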

Additional observations from a re-analysis of the deposited data

How the results depend on the processing

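Direction held for Vim, Sox2 and Hopx (higher) and for Fabp7, Nes, Pax6 and Hes1 (lower) under every alternative run. Signs turned only in values that never passed the threshold. Hes5 was 0.056 without the vehicle library of culture 1, 0.15 without the 10HDA library of culture 4, 0.11 without culture 1 (0.044 with the block) and 0.013 without culture 4, and ran from -0.51 to 0.15 over single libraries left out. Notch1 ran from -0.25 to 0.045, the latter without the vehicle library of culture 4. Sox9 ran from -0.074 to 0.18 and was -0.046 without culture 3. The causes were not tested. Members past the threshold were 0, but 2 with the replicate block, also with at least 1 CPM or without culture 1, 1 (Fabp7, adjusted p = 0.028 from edgeR) with every gene of at least 1 count, and 0 to 1 over single libraries left out (Vim, adjusted p = 0.095, without the vehicle library of culture 1). The median of the members was 0.037 without culture 1 and 0.016 with the block added.

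Genes past the threshold numbered 66, and 945 with culture as a replicate block, 1148 with the block and at least 1 CPM, 711 with the block and without culture 1, 636 with at least 1 count, 170 with DESeq2, 218 with the likelihood ratio test, 43 at 0.05, and 3, 0 and 9 without cultures 1, 3 and 4. Over single libraries left out they ran from 0, without the 10HDA library of culture 1, to 350, without that of culture 4. The share of higher calls was 31.8%, and 44.9% with library size alone.

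With library size alone the median log2 fold change was 0.16 for Notch ligands, 0.078 for the nuclear complex, 0.14 for the proteases, -0.16 for the other receptors, 0.014 for the other filament genes and 0.00054 for the other radial glia genes, which had -0.044 with upper quartile scaling. Over single libraries left out the ligands ran from -0.0081 to 0.17, the nuclear complex from -0.056 to 0.087, the receptors from -0.31 to -0.14, the filament genes from -0.17 to 0.036 and the other radial glia genes from -0.14 to -0.046. Without culture 1 the modifiers had -0.049 and -0.055 with the block, and the other radial glia genes -0.045 with the block, with -0.15 without culture 3 and -0.13 without culture 4. Depth limits Hes1 and Hopx most, with under 80 counts in every library.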
